A study of Mus musculus with 3 samples.

Results

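The actin cytoskeleton genes described here are 40 of the 32285 genes counted in single cells of mouse peripheral blood. They were chosen by symbol: actin itself, the proteins that bind its monomers, the Arp2/3 complex and its activators, filament cappers and elongators, cross-linkers, adhesion and membrane linkers, the GTPases and exchange factors that signal to actin, and the intermediate filament gene Vim. The blood mononuclear cells came from C57BL/6 mice in 3 groups of 1 library each: aged mice given AA for 1 month (aged+AA), aged mice given PBS for 1 month (aged), and young mice given PBS for 1 month (young). The title of the series spells AA out as ascorbic acid and mentions Myh9, a myosin that moves on actin. The labels give neither the ages in months nor the number of mice behind a library. Libraries were made with a 10x Chromium 3' kit, in which each unique molecular identifier (UMI) marks 1 captured RNA molecule near its 3' end, so that UMI levels can be set beside each other between genes without dividing by length.

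Actin exists as monomers and as filaments, and white blood cells rebuild their filaments when they crawl, adhere, engulf particles or form a synapse with another cell. Profilin delivers monomers to growing ends, thymosins hold monomers in reserve, cofilin severs old filaments, and the Arp2/3 complex starts branches when a protein of the WASP family activates it. Cross-linkers such as filamin and alpha-actinin join filaments into networks or bundles, and talin, vinculin and zyxin sit where integrins hold on to them.

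Of the 40 genes, 36 had an entry in the RefSeq promoter table (GRCm38.p6), with Actb, Lsp1, Cotl1 and Rac2 named only. Many actin genes are known targets of serum response factor, whose site is the CArG box, here a pair of C, 6 bases of A or T and a pair of G, a pattern that reads the same on both strands. An exact box lay within the 250 bases before the start of 3 of 36 members (8.33%), Arpc4, Actg1 and Vcl, against 439 of 27025 genes with a promoter in the table (1.62%). Among further actin-related genes it lay before 1 of 44 (2.27%). The pair printed here is of Actg1, the second cytoplasmic actin, and Vcl, the gene of vinculin, whose levels differ most between blood cell classes among the members with a box. Each runs 5′ to 3′ on the gene's strand over the 200 bases from 250 to 51 before the RefSeq start, with the box in capitals. A match is a description of the letters and no sign of binding.
Actg1, chr11:120348546-120348745, minus strand: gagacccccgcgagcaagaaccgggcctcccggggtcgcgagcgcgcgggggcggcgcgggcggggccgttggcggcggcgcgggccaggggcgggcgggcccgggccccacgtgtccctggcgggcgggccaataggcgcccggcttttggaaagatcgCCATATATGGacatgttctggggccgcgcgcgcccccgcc
Vcl, chr14:20929148-20929347, plus strand: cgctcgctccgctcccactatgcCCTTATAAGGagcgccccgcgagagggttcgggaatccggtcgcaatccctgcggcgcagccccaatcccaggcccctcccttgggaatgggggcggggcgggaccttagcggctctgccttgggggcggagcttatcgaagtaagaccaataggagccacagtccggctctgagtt

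The aged+AA, aged and young libraries held 80424480, 94944551 and 64496639 UMIs, and 11095, 9765 and 8729 cells remained after filtering. Cells were assigned to T, B, NK or myeloid cells by the UMIs of marker genes, none of which is a member. The T gate held 4397 aged+AA, 1844 aged and 5404 young cells, the B gate 5417, 4261 and 2548, the NK gate 182, 210 and 326, and the myeloid gate 351, 2432 and 81, in the same order of libraries. All markers of a class were detected in that class in each library, and myeloid markers in the T gate summed to 0.160% (aged+AA), 0.543% (aged) and 0.126% (young) of their level in the myeloid gate. In the myeloid gate, T markers summed to 7.29% (aged+AA), 1.30% (aged) and 5.61% (young) of their level in T cells, and B markers to 5.70%, 2.18% and 4.58% of their level in B cells. Haemoglobin RNA took 2.82% of T cell UMIs in aged+AA, 7.82% in aged and 2.70% in young blood, and 3.63%, 11.5% and 4.19% of B cell UMIs, so the aged library stood apart in red cell RNA. Ribosomal protein genes took 37.4%, 32.0% and 40.2% of T cell UMIs. Pairs of libraries shared 21 to 29 cell barcodes.

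The members took a larger share of RNA in NK and myeloid cells than in T and B cells, in all 3 libraries. Their summed UMIs were 6.25% (aged+AA), 6.11% (aged) and 5.89% (young) of all UMIs in NK cells, and 5.72%, 5.90% and 5.65% in myeloid cells. In T cells they were 3.51% (aged+AA), 3.95% (aged) and 3.05% (young), and in B cells 2.77%, 2.75% and 2.78%. The order of the classes was the same when ribosomal, mitochondrial and haemoglobin genes were left out of the total, but T cells then lay much nearer to myeloid cells. This gave 8.56%, 8.54% and 7.87% in NK cells, 7.17%, 7.86% and 7.17% in myeloid cells, 6.32%, 6.89% and 5.86% in T cells, and 4.41%, 4.62% and 4.62% in B cells. In T cells the aged library had the highest summed share and the young library the lowest. Over single T cells, the middle 90% of shares ran from 2.05% to 5.91% in aged+AA, 1.95% to 7.18% in aged and 1.86% to 4.77% in young blood, so the libraries overlapped widely cell by cell.

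**Figure D1:**
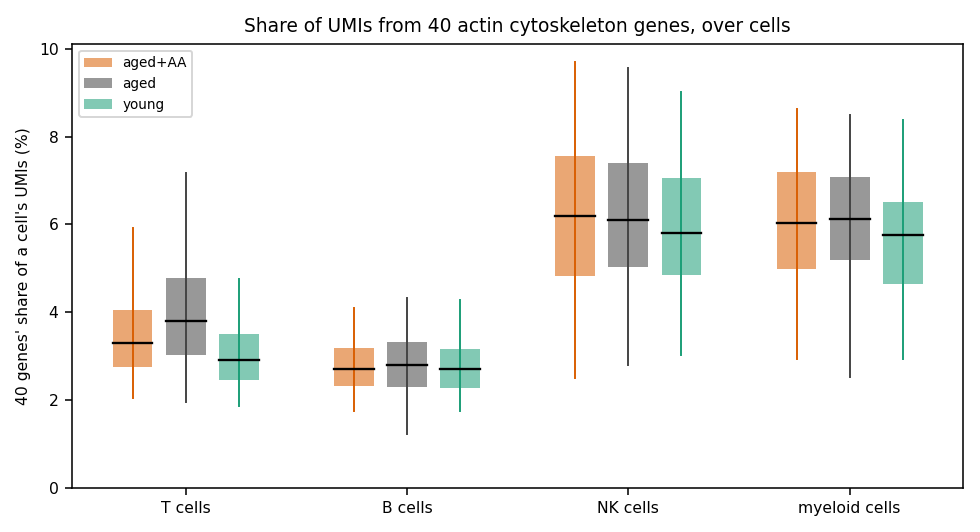
Share of each cell's UMIs that came from the 40 genes, in percent, by class and library (aged+AA orange, aged grey, young green). Black marks are the median cell, boxes the middle 50% and lines the middle 90% of cells, and NK and myeloid cells sit above T and B cells in each library.

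The monomer group carried most of this RNA. Levels are in CPM, the usual scaling of a gene's UMIs by all UMIs of the class in a library. Tmsb4x, the gene of thymosin beta 4, which sequesters actin monomers (chrX:167207093-167209315), supplied 29.5% of the members' UMIs over all gated cells, and Actb, beta actin (chr5:142903115-142906754), 19.9%. Tmsb10, the gene of the related thymosin beta 10 (chr6:72957347-72958748), supplied 14.2%, so that 3 genes made up 63.7% of the total. Pfn1 (profilin), Actg1 (gamma actin) and Coro1a, the coronin that promotes filament turnover in leukocytes, followed with 3.87%, 3.22% and 3.06%. Vcl had the fewest UMIs, 0.0363% of the total. Arpc4 shares exon sequence on the same strand with Ttll3, and Actb and Actg1 have closely similar coding sequences, though the kit captures RNA near its 3' end. How reads in shared sequence were counted is not given in the sources used here.

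**Figure D2:**
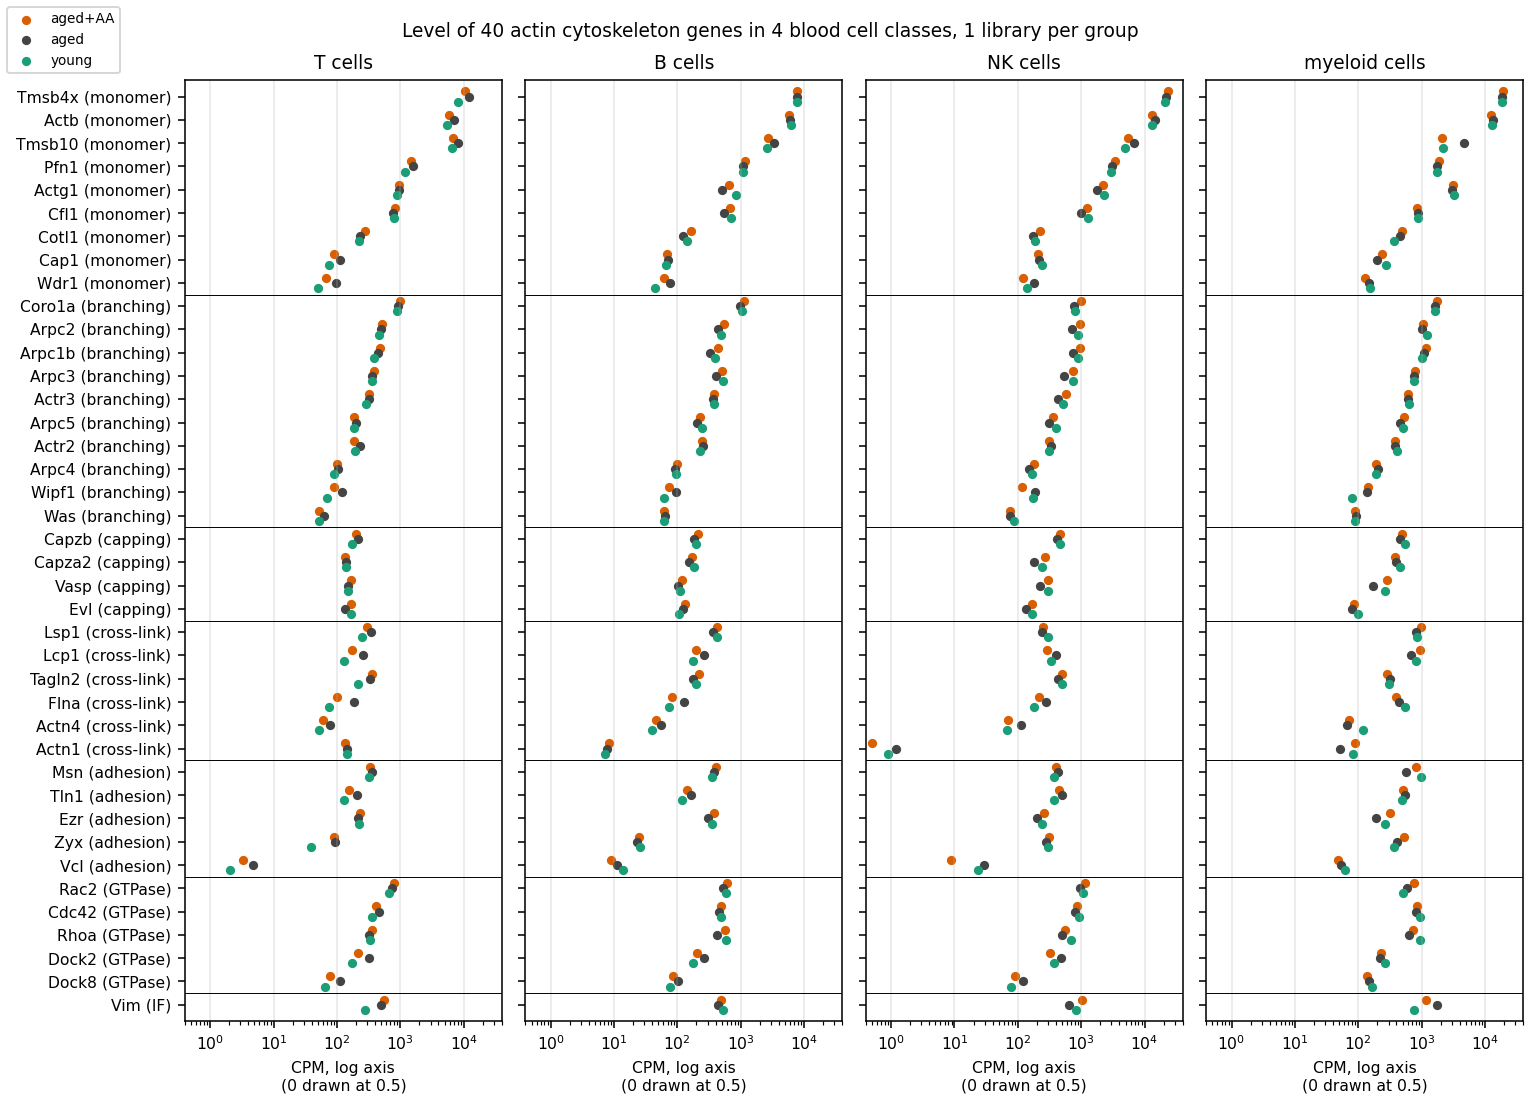
Level of each gene in CPM (log axis, 0 drawn at 0.5) in the 4 classes, grouped by role, with aged+AA in orange, aged in grey and young in green. Tmsb4x in NK cells of the aged+AA library reached 23160 CPM while Vcl in T cells of the young library was at 2.05 CPM, and the 3 libraries lay close together beside the gaps between classes for most genes.

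Myeloid cells were the class that stood furthest from the rest. Against the mean of the T, B and NK cells, with the library as a block, 28 of 40 members were higher and 2 lower at an adjusted p under 0.05 and 1.5-fold or more (edgeR quasi-likelihood test over 12 sums of UMIs, 3 libraries by 4 classes). The same rule called 24.4% of the 12498 genes tested higher and 20.6% lower. The median log2 fold change was 0.76 over the members and -0.06 over all genes tested. These p-values measure the spread left between the sums once class and library are fitted. The sums come from only 3 libraries, shared by all 4 classes, which are 3 different groups and not replicates of 1 group. Differences of a class between groups therefore add to that spread.

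Adhesion and cross-linking genes had the largest myeloid differences. Among the members, the largest fitted one was that of Actn1, an alpha-actinin gene, but its NK level was near 0. Its myeloid level lay below its T cell level in each library, as described below. Zyx, whose product zyxin marks focal adhesions (chr6:42349630-42360213), was at 518, 414 and 364 CPM in the myeloid cells of aged+AA, aged and young blood. It was at 309, 274 and 304 CPM in NK cells, 89.6, 94.1 and 39.3 CPM in T cells, and 24.6, 23.4 and 25.7 CPM in B cells. The fitted myeloid difference was 5.43-fold (log2 2.44 ± 0.16 SE, edgeR adjusted p = 1.13e-08), and no library's myeloid value overlapped the other classes. Vcl was at 47.8, 52.9 and 62.6 CPM in myeloid cells of aged+AA, aged and young blood, against 8.88, 29.6 and 23.7 CPM in NK cells, 9.05, 11.2 and 13.7 CPM in B cells, and 3.35, 4.67 and 2.05 CPM in T cells. Its difference was 5.95-fold (log2 2.57 ± 0.21 SE, edgeR adjusted p = 1.29e-07). Flna, filamin A, a cross-linker that also anchors membrane receptors (chrX:74223461-74249820), was at 399, 435 and 543 CPM in myeloid cells and 3.50-fold above the mean of the other classes (log2 1.81 ± 0.13 SE, edgeR adjusted p = 3.49e-08).

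The branching group also leaned to myeloid cells. Of the 7 subunits of the Arp2/3 complex among the members, Arpc1b, Arpc2, Arpc3, Arpc4, Arpc5, Actr2 and Actr3, all were called higher, from 1.57-fold for Actr2 to 2.14-fold for Arpc1b. Was and Wipf1, the activator WASP and its partner, were not called (1.42-fold, edgeR adjusted p = 0.00138, and 1.22-fold, edgeR adjusted p = 0.159). Lcp1, L-plastin, a bundler of leukocyte filaments, was 3.49-fold higher and Lsp1, another leukocyte actin-binding protein, 2.78-fold higher in myeloid cells. Both genes lower in myeloid cells were a thymosin and an elongation factor: Tmsb10 was at 2099, 4739 and 2187 CPM in myeloid cells of aged+AA, aged and young blood (0.604-fold, edgeR adjusted p = 0.00536), and Evl, of the family that speeds filament growth, at 87.1, 79.5 and 101 CPM (0.636-fold, edgeR adjusted p = 0.000857). The Tmsb10 call was lost when the aged+AA library was left out (edgeR adjusted p = 0.143) or the young library (edgeR adjusted p = 0.0564), and without the library block (edgeR adjusted p = 0.0564). Markers of platelets, which are rich in actin, summed to 17.7 CPM in aged+AA, 95.4 CPM in aged and 2.23 CPM in young myeloid cells, and without every cell that held a platelet marker UMI the myeloid counts were again 28 higher and 2 lower.

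**Figure D3:**
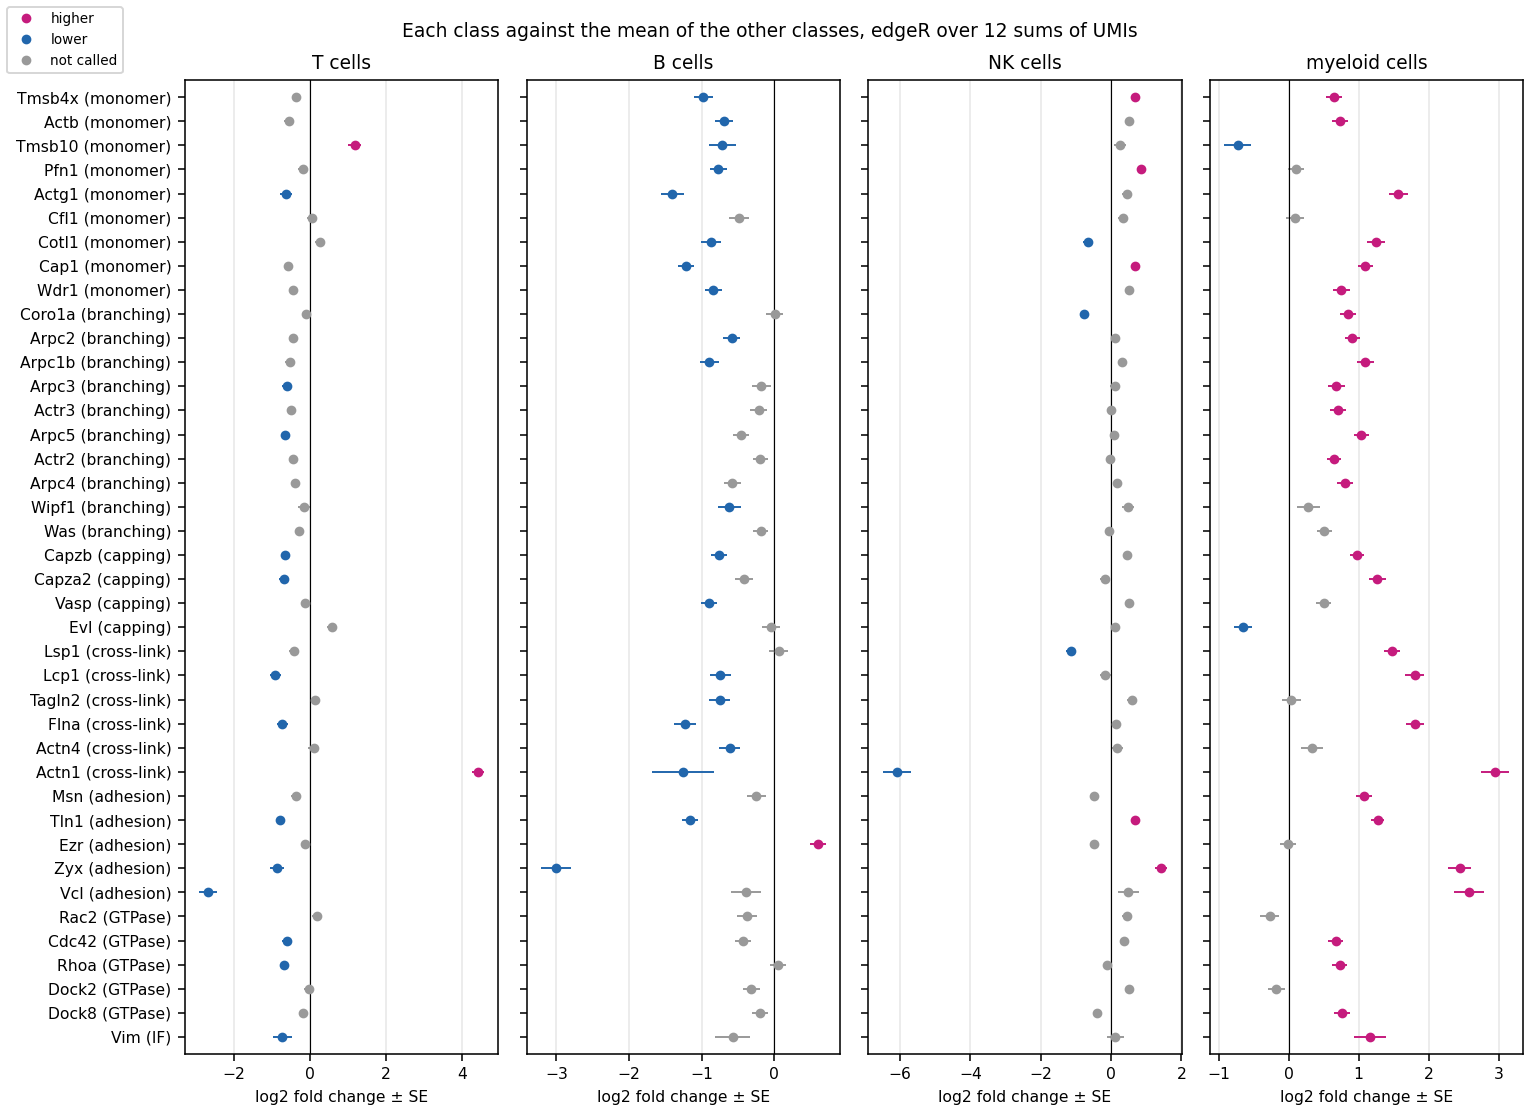
Log2 fold change ± SE of each gene in a class against the mean of the other 3 classes (edgeR), with calls of higher in pink, lower in blue and none in grey. The horizontal axes differ between panels, 28 genes are called higher in myeloid cells, and 20 are called lower in B cells.

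The myeloid gate held monocytes and neutrophils, and these differed in several members. Split by markers, it held 134, 1258 and 57 monocyte-gated cells in aged+AA, aged and young blood, and 198, 941 and 18 neutrophil-gated cells. Actn1, the gene of alpha-actinin 1, which cross-links filaments at adhesions (chr12:80167547-80260371), was at 13.3 (aged+AA), 3.52 (aged) and 24.2 CPM (young) in monocyte-gated cells and at 193, 216 and 291 CPM in neutrophil-gated cells. Zyx was at 334, 320 and 342 CPM in monocyte-gated cells and at 789, 721 and 432 CPM in neutrophil-gated cells. Lcp1 ran the same way, with 607, 491 and 730 CPM in monocyte-gated and 1379, 1257 and 1044 CPM in neutrophil-gated cells. Tmsb10 ran the other way, with 3132, 5994 and 2532 CPM in monocyte-gated and 700, 1074 and 1214 CPM in neutrophil-gated cells. For these 4 genes the ranges of both gates did not overlap over the 3 libraries, and no test was made, since the young neutrophil gate held only 18 cells.

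NK cells had the highest levels of Tmsb4x, Pfn1 and Cfl1 in each library. Tmsb4x was at 23160, 22010 and 21050 CPM in NK cells of aged+AA, aged and young blood, against 19330, 18440 and 18250 CPM in myeloid cells, 10570, 12000 and 8239 CPM in T cells and 7827, 7857 and 7681 CPM in B cells. Against the mean of the other classes, 5 of 40 members were higher and 4 lower in NK cells, where the same rule called 10.8% of all genes tested higher and 11.9% lower. The higher genes were Zyx (2.70-fold), Pfn1 (1.80-fold, with 3364, 3039 and 2906 CPM), Cap1, which recycles actin monomers (1.61-fold), Tmsb4x (1.60-fold) and Tln1, the talin that couples integrins to actin (1.60-fold), with edgeR adjusted p-values from 1.85e-05 to 0.000552. The Tmsb4x call was lost without the aged+AA library (edgeR adjusted p = 0.0757). Lsp1 was 0.458-fold and Coro1a 0.589-fold in NK cells (edgeR adjusted p = 2.84e-05 and 0.000408), and Cotl1, a coactosin that binds filaments, was 0.638-fold (edgeR adjusted p = 0.00357, and 0.0621 without the aged+AA library).

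Actn1 separated the lymphocyte classes clearly. In NK cells it had 0 UMIs in aged+AA blood, 1 UMI in aged blood and 1 UMI in young blood, with upper 95% Poisson bounds of 5.46, 6.61 and 4.90 CPM. T cells held 135, 145 and 142 CPM in aged+AA, aged and young blood, and B cells 8.43, 7.79 and 7.24 CPM. The test called Actn1 higher in T cells (edgeR adjusted p = 4.49e-10) and lower in NK cells (edgeR adjusted p = 5.22e-08), and no fold is given because the NK level is near 0. It also called Actn1 higher in myeloid cells (edgeR adjusted p = 1.51e-08). Myeloid cells held 88.4, 51.8 and 82.7 CPM in aged+AA, aged and young blood, below T cells in each library. The myeloid call therefore rests on the low B and NK levels in the mean of the other classes. The call of Actn1 as lower in B cells (edgeR adjusted p = 0.0351) turned direction with a stricter marker gate and with free RNA subtracted (log2 0.24 and 0.40), and was lost without the aged library (edgeR adjusted p = 0.171) or the young library (edgeR adjusted p = 0.195).

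In T cells more members were lower than higher against the mean of the other classes. Actn1 and Tmsb10 were higher and 13 of 40 members lower, where the same rule called 18% of all genes tested higher and 13.7% lower. The median log2 fold change was -0.42 over the members and 0.05 over all genes tested. Tmsb10 was at 6683, 8187 and 6518 CPM in T cells of aged+AA, aged and young blood and at 2647, 3314 and 2582 CPM in B cells, and 2.27-fold above the mean of the other classes (log2 1.18 ± 0.17 SE, edgeR adjusted p = 6.87e-05). Vcl was 0.157-fold (edgeR adjusted p = 5.44e-07), Lcp1 0.535-fold (edgeR adjusted p = 0.000240), Zyx 0.548-fold (edgeR adjusted p = 0.00140) and Tln1 0.583-fold (edgeR adjusted p = 4.12e-05). Without the young library 2 members were higher and 8 lower, and the Zyx difference was log2 -0.58 and no longer reached 1.5-fold. Among the 13 were also Flna, Vim, both capping protein genes (Capzb and Capza2), Arpc3, Arpc5, Actg1, Rhoa and Cdc42.

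B cells lay below the mean of the other classes in members of most roles. Of the 40 members, 20 were lower and Ezr alone was higher than the mean of the other classes, where 15.1% of all genes tested were called lower and 19.2% higher. The median log2 fold change was -0.58 over the members and 0.07 over all genes tested. Zyx was 0.124-fold (edgeR adjusted p = 3.52e-08), Actg1 0.378-fold with 660, 507 and 842 CPM in aged+AA, aged and young B cells (edgeR adjusted p = 5.27e-06), and Flna 0.427-fold (edgeR adjusted p = 1.10e-05). Ezr, ezrin, which ties the membrane to cortical actin, was at 372, 304 and 350 CPM in B cells, against 229, 212 and 222 CPM in T cells, and 1.52-fold above the mean of the other classes (edgeR adjusted p = 0.000321). Its fold fell under 1.5 with DESeq2, with the other normalization and when either PBS library was left out. Coro1a, Rhoa, Lsp1 and Evl were at 1.00-fold, 1.04-fold, 1.04-fold and 0.971-fold in B cells and did not pass the test.

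Set directly against each other, T and B cells differed in few members. In T cells against B cells 5 of 40 members were higher (Actn1, Zyx 3.04-fold, Tmsb10 2.68-fold, Cotl1 1.80-fold and Tagln2, transgelin 2, 1.58-fold) and Vcl alone was lower (0.306-fold), where 16.6% of all genes tested were higher and 16.5% lower. In NK cells against T cells 13 members were higher and 3 lower, where the whole table gave 10.4% and 12.7%. The 13 included Vcl (5.16-fold), Zyx (3.30-fold), Tln1 (2.13-fold) and Cap1 (1.92-fold), with edgeR adjusted p-values of at most 0.000189 for these 4. Vcl rests on few counts, with 6, 25 and 27 UMIs in aged+AA, aged and young NK cells. In myeloid cells against NK cells 16 members were higher and 1, Tmsb10, lower, where the whole table gave 21.3% and 15.3%. These contrasts were added after the values of the classes were seen.

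Library comparisons had no replicate. A ratio of CPM between libraries is given relative to the median gene of the same class, with an exact conditional binomial 95% interval that covers counting error only, and a member counts as higher or lower at 1.5-fold or more. Both comparisons use the aged library, so a value particular to that library enters both with opposite sign. In a sum over a class or a gated subset, fewer cells of a subtype and less RNA per cell cannot be told apart.

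In T cells, the aged+AA library differed past that fold from the aged library in Flna alone. Flna was at 99.3 CPM in aged+AA, 183 CPM in aged and 76.1 CPM in young T cells, so that the aged library was the high one. Relative to the median gene it was 0.587-fold (0.553 to 0.624) in aged+AA over aged, and 1 of 40 members lower and 0 higher stood beside 6.32% of all genes lower and 5.8% higher. Dock2, an exchange factor for Rac, was at 216, 325 and 174 CPM, and Lcp1 at 175, 262 and 129 CPM, in aged+AA, aged and young T cells. Their relative ratios of aged+AA over aged were 0.719 and 0.723. On the other side, Evl was at 169, 132 and 165 CPM and Cotl1 at 282, 232 and 220 CPM, with relative ratios of 1.39 and 1.32 that did not reach the fold.

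In the comparison of aged with young T cells, 6 of 40 members were higher and 1 lower. All genes tested gave 13.2% higher and 11.7% lower, so the count of higher members lies near the background and that of lower members below it. With a filter of at least 10 UMIs the background was 17.5% and 15.1%, and 5 members were higher and 1 lower. The 6 were Flna (1.94-fold, 1.83 to 2.07), Zyx (1.93-fold, 1.77 to 2.11), Lcp1 (1.64-fold), Wdr1, which helps cofilin take filaments apart (1.57-fold), Dock2 and Vcl. Evl was the lower gene (0.645-fold, 0.607 to 0.686), with Rhoa (0.754), Ezr (0.768) and Cfl1 (0.795), the cofilin gene, next in order but inside the fold. CPM of the median gene differed by log2 0.31 between aged and young T cells. Without division by it 12 members were higher and 0 lower, beside 27.8% and 5.17% of all genes tested. The median relative log2 ratio of the members was -0.01, and 19 lay above and 21 below the median gene. Platelet markers summed to 1.03, 5.97 and 0.513 CPM in aged+AA, aged and young T cells, and myeloid markers to 111, 299 and 76.7 CPM. Both were highest in the aged library, as was haemoglobin. The counts were again 6 higher and 1 lower without cells over 5% haemoglobin UMIs, without cells with a platelet marker UMI, or with free RNA subtracted. In these runs 13.1% to 13.3% of all genes were higher and 11.5% to 11.6% lower. The haemoglobin and platelet runs were chosen after seeing the data. The part of these RNAs in the ratio of each gene was not tested.

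**Figure D4:**
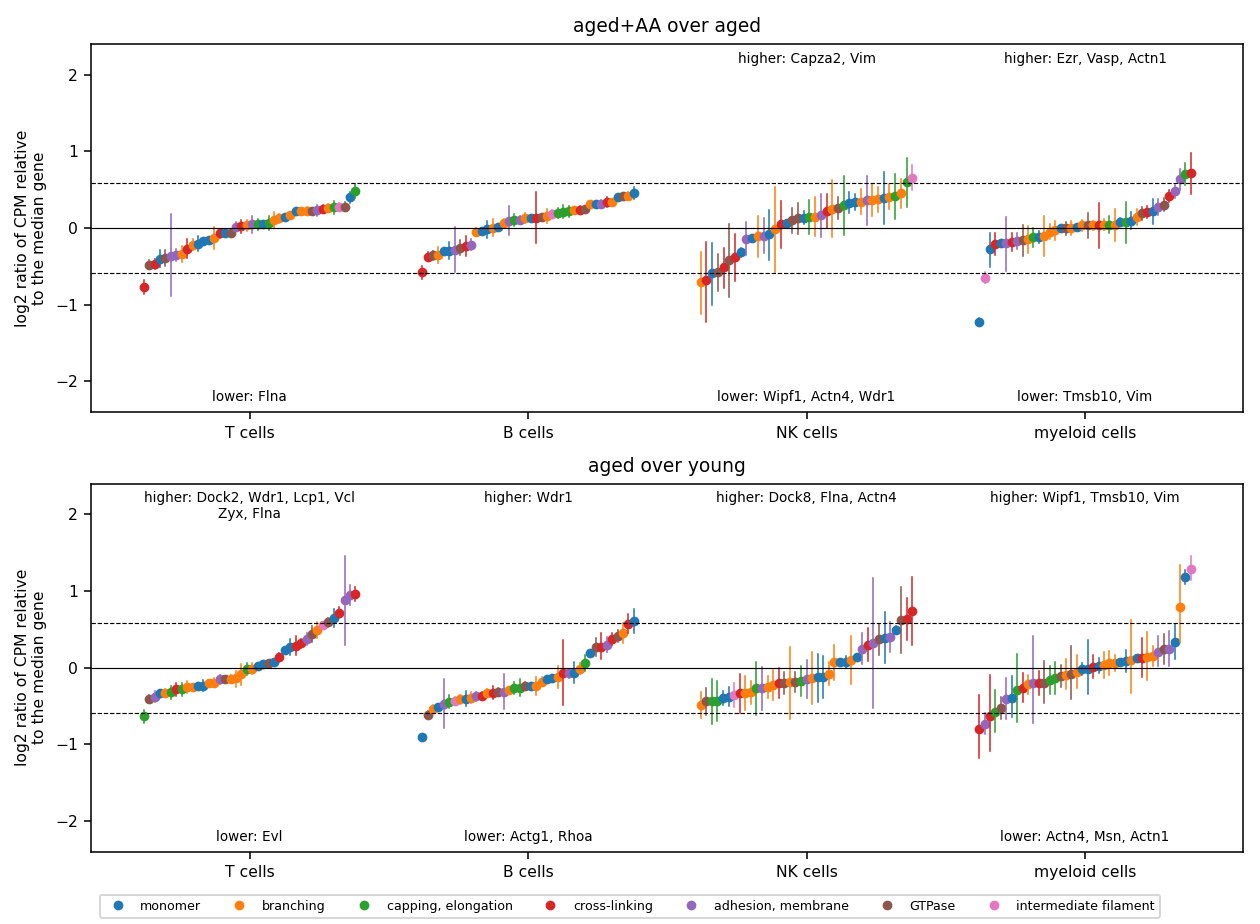
Log2 ratio of CPM relative to the median gene for each member in aged+AA over aged (top) and aged over young (bottom), by class, with 95% intervals for counting error and colours for roles. Dashed lines mark 1.5-fold, genes past them are named, and most of the 40 members lie between the lines in each class.

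By role, the genes past the fold in T cells were spread over cross-linking, adhesion, monomer, GTPase and elongation genes. None of the 10 branching genes passed the fold in either comparison, with relative log2 ratios from -0.34 to 0.26 in aged+AA over aged and from -0.33 to 0.50 in aged over young. The 4 capping and elongation genes all lay at or above the median gene in aged+AA over aged (0.05 to 0.48) and below it in aged over young (-0.63 to -0.02). Cross-linkers ran from -0.77 to 0.25 in aged+AA over aged and from -0.28 to 0.96 in aged over young. Vim, which shapes intermediate filaments rather than actin (chr2:13573927-13582826), was at 553, 496 and 273 CPM in aged+AA, aged and young T cells, with relative log2 ratios of 0.27 and 0.55.

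The make-up of the T cells differed between the libraries. Ccl5 is the gene of a chemokine made by memory and effector T cells. T cells with 2 or more Ccl5 UMIs were 1683 of 4397 aged+AA, 605 of 1844 aged and 447 of 5404 young T cells. Tested against T cells with no Ccl5 UMI, with the library as a block, 3 of 40 members were higher and 1 lower in T cells with Ccl5 (edgeR), where the rule called 6.72% of the 10580 genes tested higher and 4.36% lower. Zyx was at 158, 175 and 114 CPM in aged+AA, aged and young T cells with Ccl5, against 33.7, 44.9 and 29.2 CPM in those without, a 4.04-fold difference (log2 2.01 ± 0.08 SE, edgeR adjusted p = 4.41e-08). This test was added after the values were seen. Vim was 1.95-fold and Lcp1 1.55-fold higher (edgeR adjusted p = 3.14e-05 and 4.29e-05). Actn1 was lower, with 75.4, 57.9 and 102 CPM in T cells with Ccl5 against 182, 197 and 147 CPM in those without (0.432-fold, edgeR adjusted p = 0.000251).

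Within T cells split by Ccl5, Flna was past the fold in both comparisons on each side of the split, and Zyx was past it on neither. Flna was at 117, 194 and 93.0 CPM in aged+AA, aged and young T cells with Ccl5, and at 84.0, 179 and 74.5 CPM in those without. Its relative ratio of aged+AA over aged was 0.648 with Ccl5 and 0.511 without, and of aged over young 1.77 and 1.96. Zyx in aged over young was 1.31-fold (1.15 to 1.49) with Ccl5 and 1.25-fold (1.07 to 1.45) without, under the 1.93-fold of all T cells, while it was 1.76-fold in CD8-gated and 2.16-fold in CD4-gated cells. Flna was past the fold in CD8-gated cells (0.644 in aged+AA over aged, 1.78 in aged over young) and in CD4-gated cells (0.604 and 2.11). Evl in aged over young was 0.642-fold without Ccl5 and 0.787-fold (0.691 to 0.895) with it. Vim of aged over young was 1.42-fold without Ccl5 and 0.921-fold with it.

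Counts of members past the fold in the subsets lay near or below the background of all genes in most cases. In aged+AA over aged, no member was higher, and 1 was lower in CD8-gated cells (5.25% of all genes higher, 5.58% lower), 3 in CD4-gated cells (5.47% and 6.98%), 2 in T cells without Ccl5 (5.88% and 6.85%) and 2 in T cells with it (5.94% and 6.44%). In aged over young, 4 members were higher and 1 lower in CD8-gated cells (background 11.1% and 9.57%), and 8 and 1 in CD4-gated cells (13.9% and 11.9%). T cells without Ccl5 gave 3 higher and 1 lower (12.1% and 11.1%), and T cells with it also 3 and 1 (10.6% and 8.61%).

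**Figure D5:**
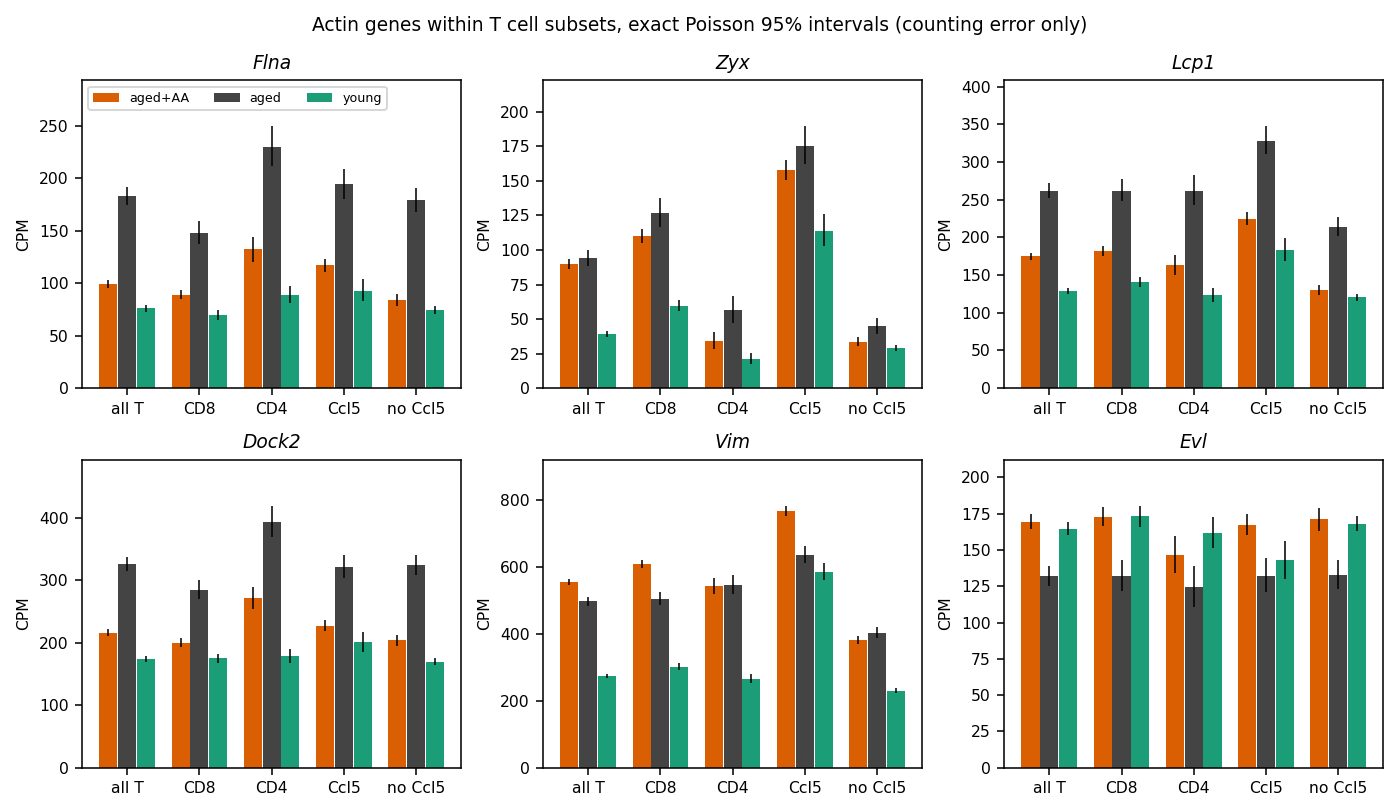
CPM of 6 members in all T cells, in CD8-gated and CD4-gated T cells, and in T cells with at least 2 or with no Ccl5 UMIs, with exact Poisson 95% intervals for counting error. Flna, Lcp1 and Dock2 are highest in the aged library in each set of cells, Evl is lowest there, and Zyx is higher with Ccl5 than without in each library.

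B cells showed few differences between libraries. No member passed the fold in aged+AA over aged, where 4.71% of all genes were higher and 5.2% lower. Flna came nearest, with 82.4 CPM in aged+AA, 125 CPM in aged and 74.6 CPM in young B cells and a relative ratio of 0.669 (0.628 to 0.713). In aged over young B cells 1 member was higher and 2 lower, with a background of 9.81% and 8.79%. Actg1 was lower, at 507 CPM in aged against 842 CPM in young cells (0.535-fold, 0.519 to 0.551), with 660 CPM in aged+AA cells. Rhoa, the GTPase that drives contraction, was lower too (0.653-fold, 427 against 581 CPM), and Wdr1 was higher (1.52-fold, 76.2 against 44.5 CPM). Of the 40 members, 30 lay below the median gene in aged over young B cells, and their median relative log2 ratio was -0.24. Without division by the median gene, whose CPM differed by log2 0.17, 4 members were higher and 1 lower, beside 17.1% and 4.9% of all genes. The members' median was then log2 -0.07. With at most 5% mitochondrial UMIs, 2 members were higher and 5 lower, beside 13% and 10.6% of all genes.

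NK cells were few, so intervals were wide. Of 38 members with enough counts, 2 were higher and 3 lower in aged+AA over aged, with a background of 5.44% and 7.23%. Vim was at 1030, 649 and 835 CPM in aged+AA, aged and young NK cells (1.58-fold in aged+AA over aged, 1.41 to 1.77), and Capza2, a capping protein subunit, at 271, 178 and 242 CPM (1.51-fold, 1.21 to 1.89). Wipf1 (0.612-fold, 0.460 to 0.807), Actn4 and Wdr1 were the lower genes. With a stricter gate 1 was higher and 1 lower (7.32% and 7.12% of all genes), and with a looser gate 1 and 2 (5.02% and 7.22%). By the mean share over cells 0 were higher and 4 lower, where 6.77% and 7.99% of all genes were. Vim and Capza2 then had relative log2 ratios of 0.55 and 0.57. In aged over young NK cells 3 of 39 members were higher and 0 lower, with a background of 9.35% and 8.42%: Flna (1.55-fold, 1.28 to 1.88), Actn4 and Dock8, an exchange factor for Cdc42.

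In myeloid cells Tmsb10 and Vim were lower in aged+AA over aged and higher in aged over young, and past the fold in the monocyte gate too. Aged+AA over aged gave 3 members higher and 2 lower of 40, with a background of 12.9% and 13.5%, and aged over young 3 higher and 3 lower, with 21.4% and 18.9%. Lymphocyte markers moved with these libraries: T markers summed to 189, 35.0 and 143 CPM and B markers to 356, 125 and 257 CPM in aged+AA, aged and young myeloid cells, and their part in the ratios was not tested. Tmsb10 was 0.427-fold (0.412 to 0.442) in aged+AA over aged and 2.26-fold (2.13 to 2.41) in aged over young, and in monocyte-gated cells 0.472-fold and 2.44-fold. In neutrophil-gated cells Tmsb10 was 0.614-fold in aged+AA over aged. Among monocyte-gated cells 3 members were higher and 2 lower in aged+AA over aged (background 11.9% and 14.4%), and 3 and 4 in aged over young (22.4% and 20.5%). Among neutrophil-gated cells 0 were higher and 3 lower in aged+AA over aged (8.67% and 12.7%). Vim was at 1173, 1771 and 755 CPM in aged+AA, aged and young myeloid cells, and at 1438, 2176 and 763 CPM in monocyte-gated cells. In neutrophil-gated cells Vim was at 785 CPM in aged+AA and 673 CPM in aged blood, the opposite order. Vasp, an elongation factor, was 1.63-fold and Ezr 1.55-fold higher in aged+AA over aged. Ezr was 1.35-fold in monocyte-gated and 1.44-fold in neutrophil-gated cells, past the fold in neither. Vasp was 1.61-fold in monocyte-gated and 1.07-fold in neutrophil-gated cells, and Actn1, the other higher gene, was at 88.4, 51.8 and 82.7 CPM in aged+AA, aged and young myeloid cells, where the make-up of the gate differed. Msn, moesin, was lower in aged over young (0.604-fold, 0.549 to 0.666), a comparison that rests on 81 young cells.

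The annotated exon length of a member moved with its ratio in lymphocytes and not in the same way in myeloid cells. Across the 40 members, Spearman's rank correlation between annotated exon length and the relative log2 ratio was -0.53 in T cells and -0.47 in B cells for aged+AA over aged, and 0.43 and 0.37 for aged over young. The same over all genes tested was -0.24 and -0.28, and 0.21 and 0.31. In NK cells it was -0.48 over 38 members for aged+AA over aged and 0.38 over 39 members for aged over young, with -0.21 and 0.20 over all genes. In myeloid cells it was 0.04 and -0.33 over the members, and 0.17 and -0.16 over all genes. Flna has 9400 and Lcp1 9504 annotated exon bases, while Tmsb10 has 1276. These values are a description across genes, which are not independent replicates and share libraries, and the part of length in the ratios was not tested.

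A further 54 actin-related genes, chosen by role with earlier results of these data known, gave a wider view. Of the 52 tested between classes, 21 were higher and 4 lower in myeloid cells (24.4% and 20.6% of all genes), 3 higher and 13 lower in T cells (18% and 13.7%), 10 higher and 13 lower in B cells (19.2% and 15.1%), and 5 higher and 6 lower in NK cells (10.8% and 11.9%). Dstn, Gsn and Abi3, a relative of cofilin, the severing protein gelsolin and a subunit of the complex that activates Arp2/3, had myeloid log2 fold changes of 3.65, 4.45 and 3.05 (edgeR adjusted p = 1.03e-09, 8.94e-10 and 1.28e-10). In T cells, 3 of 50 were higher and 2 lower in aged+AA over aged, near or below the 5.8% and 6.32% of all genes, and 9 were higher and 3 lower in aged over young, where all genes gave 13.2% and 11.7%. Mrtfa, the actin-sensing partner of serum response factor, was at 19.6, 37.3 and 18.6 CPM in aged+AA, aged and young T cells, with the aged library high as for Flna (relative ratios 0.571 and 1.62). Iqgap1, a scaffold for Rac1 and Cdc42, was at 251, 325 and 145 CPM in aged+AA, aged and young T cells (relative ratio of aged over young 1.80). Coro1b, a coronin of low level here, was at 4.87, 3.28 and 8.24 CPM, with 128, 33 and 241 UMIs (relative ratio of aged over young 0.321). Ssh2 was lower too, at 227 CPM in aged and 317 CPM in young T cells (0.576). Rhob was higher in aged+AA over aged, at 58.4 against 33.6 CPM in T cells (relative ratio 1.885).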

How the data were processed

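Blood mononuclear cells of 3 libraries were analysed, 1 per group, grouped by the labels' age and treatment. Raw UMI counts of every barcode were deposited, with Cell Ranger 4 as their source per the file headers. Seurat 3.1.0 and mm10 are named in the submitters' processing notes. The members and lists were chosen with earlier results of these data known.

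From the counts, barcodes at or above a limit of 1978.6 (aged+AA), 2157.3 (aged) or 1839.3 UMIs (young) were called as cells. Barcodes from 500 UMIs up to that limit were called if they differed from free RNA. Called cells were kept if they had 250 genes or more and no more than 10% mitochondrial UMIs. They were then cleared of doublets with Scrublet (scanpy 1.11.5), which marked 464 aged+AA, 418 aged and 411 young cells. A cell entered a class with at least 3 marker UMIs of that class and 75% of all class marker UMIs, which left 6.74%, 10.4% and 4.24% of cells out. Sums per library and class were tested with edgeR 4.0.16 in R 4.3.3 (Benjamini-Hochberg adjustment over all genes tested), with the library as the block since the 4 classes come from the same 3 libraries, and DESeq2 1.42.0 as an alternative. Library ratios used genes with at least 50 UMIs over both libraries. Named members were the 6 with most UMIs, the 4 called with the largest fold each way per class, and, in each library comparison, the first 4 (T, B) or 2 (NK, myeloid) each way by the interval bound nearest to 1. The others named were chosen after their values were seen or to complete a role. Positions came from GENCODE M21 and promoter sequences from RefSeq. The edgeR test and the library ratios were also run on simulated counts. For the ratios these held counting error only, and for edgeR a fixed spread between sums that was not taken from these data. Neither run can show how spread between mice would move the results. Intervals cover counting error only.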

Additional observations from a re-analysis of the deposited data

Results flagged for a closer look

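Vim moved in opposite directions in aged+AA over aged, with a relative log2 ratio of 0.66 in NK cells and -0.65 in myeloid cells. Actn4, the gene of alpha-actinin 4, did so in aged over young, with 0.74 in NK cells and -0.80 in myeloid cells. With 1 library per group neither difference was tested. Actn4 was at 71.1, 114 and 68.6 CPM in aged+AA, aged and young NK cells and at 70.0, 65.9 and 118 CPM in myeloid cells, the young value coming from 81 cells.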

How the results depend on the processing

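Total counts of members called between classes moved by at most 1.5 times under each alternative run (DESeq2, another normalization, no low-count filter, each library left out, a stricter gate, free RNA subtracted, and, chosen after seeing the data, without cells rich in haemoglobin or with a platelet marker). With each library left out they ran from 10 to 18 in T, 18 to 21 in B, 9 to 11 in NK and 29 to 31 in myeloid cells, and the lower members in T cells were 8 without the young library in place of 13. The single higher member in B cells, Ezr, was not called with DESeq2, with the other normalization or without either PBS library. No paired analysis was possible because each group held 1 library, and the class contrasts already used the library as a block. Without that block 15 members were called in T, 20 in B, 9 in NK and 29 in myeloid cells. In aged+AA over aged, B cells gave 1 member past the fold in place of 0 with a stricter gate, a looser gate or doublets kept. They did so too with no division by the all-gene median and without cells with a platelet marker. All genes tested gave 4.26% to 5.03% higher and 5.08% to 5.87% lower in these runs. NK cells gave 2 with the stricter and 3 with the looser gate, and by the mean share 0 higher and 4 lower. In the same order, all genes gave 7.32% higher and 7.12% lower, 5.02% and 7.22%, and 6.77% and 7.99%. T cells gave 2 with at most 5% mitochondrial UMIs, without the division or in cells with no Ccl5 UMI, and 3 in CD4-gated cells. Over these T cell runs 3.61% to 5.88% of all genes were higher and 6.29% to 10.4% lower. Myeloid cells gave 2 by the mean share over cells (11.9% of all genes higher, 16% lower) and 3 in neutrophil-gated cells (8.67% and 12.7%). In aged over young, T cells gave 12 without the division (27.8% of all genes higher, 5.17% lower). They gave 4 in cells with no Ccl5 UMI (12.1% and 11.1%). B cells gave 7 with at most 5% mitochondrial UMIs (13% and 10.6%). Without the division they gave 5 (4 higher, 1 lower, background 17.1% and 4.9%). By the mean share they also gave 5 (2 higher, 3 lower, background 11.2% and 9.14%). Myeloid cells gave 3 higher and 5 lower without the division (19.5% and 21.7% of all genes). Vim in aged+AA over aged turned to a relative log2 ratio of 0.14 in neutrophil-gated cells. Actn1 in B cells turned to 0.24 with the stricter gate and 0.40 with free RNA subtracted. The causes were not tested. With 1 library per group, no spread between mice was measured, and the young myeloid and all NK sums rest on few cells.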
